A study of Mus musculus with 36 samples.

Results

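Transcripts of 10 genes of actin nucleation and vesicle transport were followed in single mouse oocytes. They are Fmn2, Spire1, Spire2, Rab11a, Myo5b, Arpc2, Actr2, Actr3, Cdc42 and Wasl, and all 10 were found among the 21968 genes counted and passed the filter on low counts that left 12812 genes. The list was drawn up by function, and it was set apart because Spire2 was its one member that differed between the genotype labels in an earlier look at these counts. Every difference between labels in these 10 genes is therefore given as a description with no test. Comparisons of levels between genes, which do not use the labels, were tested.

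The libraries hold single oocytes at the germinal vesicle stage, before the first meiotic division begins. The genotype label is Drp1_KO for 18 oocytes of 4 mice (a to d) and Drp1_WT for 18 oocytes of 5 mice (1 to 5). The series title speaks of depletion of dynamin-related protein 1 in the oocyte, the GTPase that divides mitochondria, encoded by Dnm1l. No source used here gives the strain, the age of the mice, the deleted exons or the driver of any recombinase, and no treatment is named.

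The mouse oocyte has no centrioles, and after its nucleus breaks down the spindle is carried to the cortex by actin. Formin-2, the product of Fmn2, and the Spire proteins nucleate unbranched filaments of the cytoplasmic network, and vesicles that bear Rab11a and the motor myosin Vb (Myo5b) serve as nodes of that network. The Arp2/3 complex, here represented by Actr2, Actr3 and Arpc2, makes the branched actin of the cortical cap. It is switched on by nucleation promoting factors such as N-WASP (Wasl), which the GTPase Cdc42 activates.

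The regions upstream of Spire2, Fmn2 and Actr2 are shown because the levels of these 3 genes moved with or against each other from oocyte to oocyte. Rab11a moved with Fmn2 and Actr2 and against Spire2 as well, and its region was matched but is not printed. Promoters were taken from RefSeq on GRCm38.p6, where 8 of the 10 members matched, and the 250 bases before the start of the gene are printed on the strand of the gene. For Actr2 the RefSeq start lies a short way upstream of the GENCODE start, so its window does not adjoin the gene as placed by GENCODE. Capitals mark E-boxes (CANNTG), GC boxes (GGGCGG) and the core of the NOBOX element (TAATTG), searched on both strands.
Spire2, chr8:123332463-123332712, plus strand: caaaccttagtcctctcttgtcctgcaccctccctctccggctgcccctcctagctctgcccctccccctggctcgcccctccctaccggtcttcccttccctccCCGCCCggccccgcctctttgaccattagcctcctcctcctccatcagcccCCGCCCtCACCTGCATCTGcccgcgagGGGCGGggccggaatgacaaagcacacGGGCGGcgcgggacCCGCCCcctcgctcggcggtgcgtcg
Fmn2, chr1:174501575-174501824, plus strand: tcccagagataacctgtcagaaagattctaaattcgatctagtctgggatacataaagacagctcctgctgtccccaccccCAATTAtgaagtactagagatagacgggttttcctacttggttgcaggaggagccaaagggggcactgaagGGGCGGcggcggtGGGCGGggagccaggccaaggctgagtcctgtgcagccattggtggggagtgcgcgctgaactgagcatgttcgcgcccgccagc
Actr2, chr11:20112952-20113201, minus strand: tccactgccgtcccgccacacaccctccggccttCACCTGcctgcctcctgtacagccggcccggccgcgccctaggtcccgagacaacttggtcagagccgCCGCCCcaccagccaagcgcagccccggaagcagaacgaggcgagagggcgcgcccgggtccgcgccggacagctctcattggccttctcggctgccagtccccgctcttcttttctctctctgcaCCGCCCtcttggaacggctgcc

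The upstream region of Spire2 holds 5 GC boxes and 2 E-boxes side by side, with 71.2% G and C against a median of 52% over all 27025 promoters. That of Actr2 holds 2 GC boxes and 1 E-box at 70% G and C, and that of Fmn2 holds 2 GC boxes, no E-box and 1 NOBOX core at 57.2%. Of all promoters, 66% hold an E-box, 32.9% a GC box and 7.34% the NOBOX core in the same window. Fmn2 was the only one of the 8 members matched with a NOBOX core there, and Rab11a the only one with a CArG box, the serum response element that 1.40% of promoters hold. These matches are letters in a window and were not tested as sites.

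A few libraries need naming before the values. Totals ran from 3178509 to 7406895 counts per oocyte. Dnm1l, which checks the labels, was at 207 ± 15.8 CPM (counts per 1000000, SD, n = 4 mice) under Drp1_KO and 239 ± 69.2 CPM (SD, n = 5 mice) under Drp1_WT, so the mice of the labels overlapped, and counts over the whole gene do not show which exons were removed. Libraries in tubes 11 to 15 of Drp1_WT held 116 to 156 CPM of Dnm1l, against 234 to 322 CPM in the other 13 Drp1_WT libraries and 144 to 274 CPM in the libraries labelled Drp1_KO. These 5 libraries go against their label, and whether labels or tubes were exchanged was not tested. Tubes 11 and 12 belong to mouse 3, whose other libraries are in tubes 7, 8 and 10, so its summed counts mix both kinds. Tubes 13 to 15 are all of mouse 4. Values given without the Drp1_WT tubes 11 to 15 therefore lack mouse 4 and part of mouse 3. Every difference between labels given here is one between libraries so labelled. Tube 10 of mouse b, labelled Drp1_KO, stood apart: it had 11350 detected genes against at least 13199 elsewhere, 5.61% of counts from the mitochondrial genome against at most 0.669%, and a summed level of 12 oocyte markers of 4477 CPM against at least 23854 CPM. The summed level of 17 markers of immune, stromal, endothelial, epithelial and red cells was 576 CPM in it. In the remaining 35 that sum was 29.8 to 76 CPM. Most of the 576 CPM was Lyz2, an immune marker, at 440 CPM. Col1a1, Col1a2, Krt18 and Hbb-bs were at most 0.944 CPM in any of the 36. Of these 17 markers, 6 could be tested. At an unadjusted edgeR p under 0.05, 1 was higher and 2 lower under Drp1_KO (50% against 9.69% of all genes). Cd68 stood at 8.07 ± 5.51 CPM (SD) in Drp1_KO mice and 3.08 ± 0.940 CPM in Drp1_WT mice. Its mice did not overlap, as for 2.56% of all genes, and mouse b was highest, at 16.2 CPM. Krt8 averaged 0.427 against 1.58 CPM and Kdr 0.912 against 1.81 CPM, with overlap. Pecam1 averaged 37.1 CPM over Drp1_KO mice and 37.6 CPM over Drp1_WT mice. Cd14 and Cdh5 were at 0 in all 36. The 16 granulosa and cumulus markers summed to 78.6 to 139 CPM under Drp1_KO and 91.4 to 154 CPM under Drp1_WT. Cyp19a1 and Nr5a2 made up most of these sums. Cyp19a1 averaged 67.4 CPM over Drp1_KO mice and 57.1 CPM over Drp1_WT mice, and Nr5a2 34.2 and 31.8 CPM. Foxl2, Amh and Amhr2 were at most 0.907 CPM in any oocyte, and Ptx3 and Tnfaip6 were at 0 throughout. Of the 10 markers tested, Cyp19a1 and Nr5a2 leaned higher under Drp1_KO and the other 8 lower. Of all 12812 genes, 6480 leaned lower. The part of these libraries and markers in the results was not tested.

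All positions are on GRCm38 with GENCODE genes. The nucleators of unbranched filaments are Fmn2 (ENSMUSG00000028354, chr1:174501825-174822729, plus strand), Spire1 (ENSMUSG00000024533, chr18:67488209-67610790, minus strand) and Spire2 (ENSMUSG00000010154, chr8:123332713-123369515, plus strand). The vesicle genes are Rab11a (ENSMUSG00000004771, chr9:64715299-64737758, minus strand) and Myo5b (ENSMUSG00000025885, chr18:74440936-74771493, plus strand). The Arp2/3 genes are Arpc2 (ENSMUSG00000006304, chr1:74236084-74268209, plus strand), Actr2 (ENSMUSG00000020152, chr11:20062304-20112913, minus strand) and Actr3 (ENSMUSG00000026341, chr1:125392905-125435727, minus strand). Their activators are Cdc42 (ENSMUSG00000006699, chr4:137319696-137357720, minus strand) and Wasl (ENSMUSG00000029684, chr6:24613805-24665009, minus strand). No member shares exon sequence with another gene of the count table. Reads that also match a near-identical copy, such as a processed pseudogene, may have been left out or split, and their handling is not stated.

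The levels of the members differed widely when set on a scale of CPM per kilobase of annotated exon, averaged over the 9 mice of both labels. The small GTPases were at the top: Rab11a stood at 162 ± 24.1 CPM per kb (SD, n = 9) and Cdc42 at 154 ± 13.8. Arpc2, the subunit at the core of the Arp2/3 complex, followed at 67.9 ± 3.23 CPM per kb. Spire1 stood at 34.3 ± 2.70, the motor Myo5b at 24.6 ± 2.79, Wasl at 19.6 ± 1.44, Fmn2 at 19.5 ± 3.51, Actr3 at 17.8 ± 1.13 and Actr2 at 15.5 ± 4.16 CPM per kb. Spire2 was last at 3.57 ± 1.16 CPM per kb. Among 12800 tested genes with a known length, 97.1% lay below Rab11a, 79.8% below Fmn2 and 51.3% below Spire2.

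Neighbours in this order were compared within each mouse by an exact two-sided sign-flip permutation test of log2(CPM per kb + 0.1) over the 9 mice, where the smallest p is 0.0039, with adjustment over the 9 neighbouring pairs. The order came from the same 9 mice, so the values tested also set which genes were neighbours and which was the upper one. In 5 of these pairs the upper gene lay above the lower in 9 of 9 mice (exact permutation, adjusted p = 0.007). These were Cdc42 over Arpc2 (2.27-fold), Arpc2 over Spire1 (1.98-fold), Spire1 over Myo5b (1.40-fold), Myo5b over Wasl (1.25-fold) and Actr2 over Spire2 (4.32-fold). Rab11a and Cdc42 did not differ beyond their spread (log2 difference 0.06 ± 0.09, exact permutation, adjusted p = 0.126). Nor did Wasl and Fmn2 (0.02 ± 0.23, exact permutation, adjusted p = 0.746), Fmn2 and Actr3 (0.11 ± 0.29, exact permutation, adjusted p = 0.312), or Actr3 and Actr2 (0.24 ± 0.37, exact permutation, adjusted p = 0.126). With the length of the longest transcript in place of all exons, 8 of the 9 comparisons passed, and Cdc42 then led Rab11a while Actr3 came before Wasl and Fmn2.

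**Figure D1:**
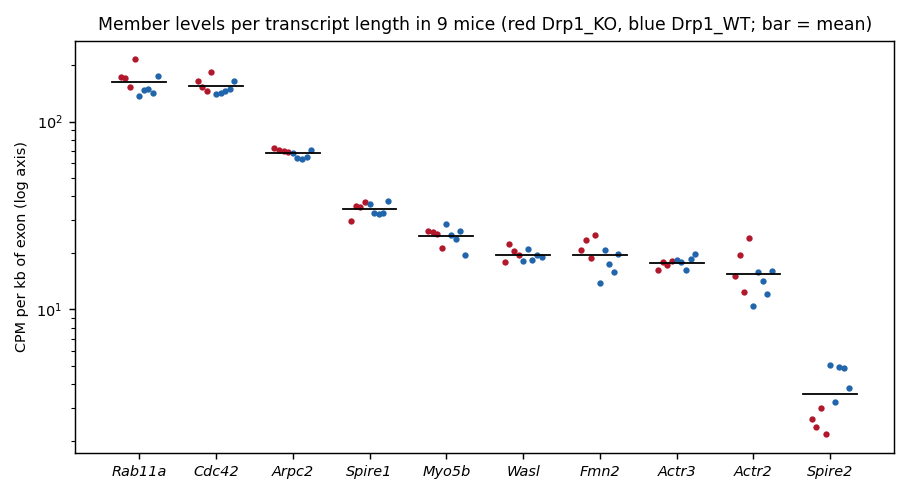
Level of each member in the 9 mice, in CPM per kilobase of exon on a log axis, with a bar at the mean. The red points are the 4 mice labelled Drp1_KO and the blue points the 5 labelled Drp1_WT; Spire2 lies at 3.57 CPM per kb on average, below Actr2 at 15.5, and its red points lie below its blue points.

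Members were then set against their closest relatives or partners. Of 12 pairs compared in the same way, with adjustment over the 12, 11 passed. The folds rest on the exon length given to each gene, and neither the SD nor the test covers an error in it. Spire1 exceeded Spire2 by 3.29 ± 0.48 on the log2 scale (SD, n = 9 mice, 9.79-fold, exact permutation, adjusted p = 0.00469). Fmn2 exceeded Fmn1, the formin known from limb and kidney development, by 4.15 ± 0.17 (17.8-fold, 19.5 against 1.01 CPM per kb). Rab11a exceeded Rab11b by 6.02 ± 0.41 (64.9-fold, 162 against 2.41 CPM per kb, or 485 against 14.8 CPM before division by length). Each of these differences had the same sign in 9 of 9 mice and the same exact permutation p as the pair of Spires.

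Among the motors, Myo5b stood above Myo5a by 2.33 ± 0.29 (5.02-fold, 4.82 CPM per kb for Myo5a). Myo5c was at 0.0518 CPM per kb and was counted in 33 of 36 oocytes. Its difference from Myo5b, 7.35 ± 0.19 on the log2(CPM per kb + 0.1) scale, understates the gap, since the added 0.1 exceeds its level. Cdc42 stood above Rac1 by 0.94 ± 0.08 (1.91-fold) and above Rhoa by 3.93 ± 0.17 (15.2-fold), the other GTPases that steer actin. Before division by length, Cdc42, Rac1 and Rhoa stood at 457, 362 and 75.2 CPM. Was, the relative of Wasl found in blood cells, had 0 counts in all 36 oocytes. Set against a floor of 3 counts over all oocytes, Wasl was at least 3287-fold higher per length. The pairs of Myo5b and of Cdc42 passed the exact permutation test with an adjusted p = 0.00469. That of Wasl and Was is among the 11 that passed, but its outcome was fixed by the 0 counts of Was and is not read as a test.

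Several slots of the Arp2/3 complex can be filled by either of a pair of paralogs. Actr3 exceeded Actr3b by 2.89 ± 0.24 on the log2 scale (7.43-fold). Of the ARPC5 subunits, Arpc5l was the higher one, at 110 ± 11.9 CPM per kb against 13.3 ± 1.29 for Arpc5, a difference of 3.03 ± 0.16 in 9 of 9 mice (8.18-fold, exact permutation, adjusted p = 0.00469). Arpc1b was higher than Arpc1a in 7 of 9 mice, at 17.9 ± 4.74 against 12.7 ± 1.98 CPM per kb (1.36-fold, exact permutation, adjusted p = 0.0213). Before division by length they stood at 91.4 and 32.6 CPM. The other subunits were Arpc3 at 118 ± 32.6 and Arpc4 at 9.52 ± 1.00 CPM per kb. Actr3 and Actr2, the actin-related pair that starts a branch, differed by 0.24 ± 0.37, which did not pass (exact permutation, adjusted p = 0.0977), but passed without mouse d (0.31, exact permutation, adjusted p = 0.0234) and with the longest transcript as length (0.57, exact permutation, adjusted p = 0.00852).

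**Figure D2:**
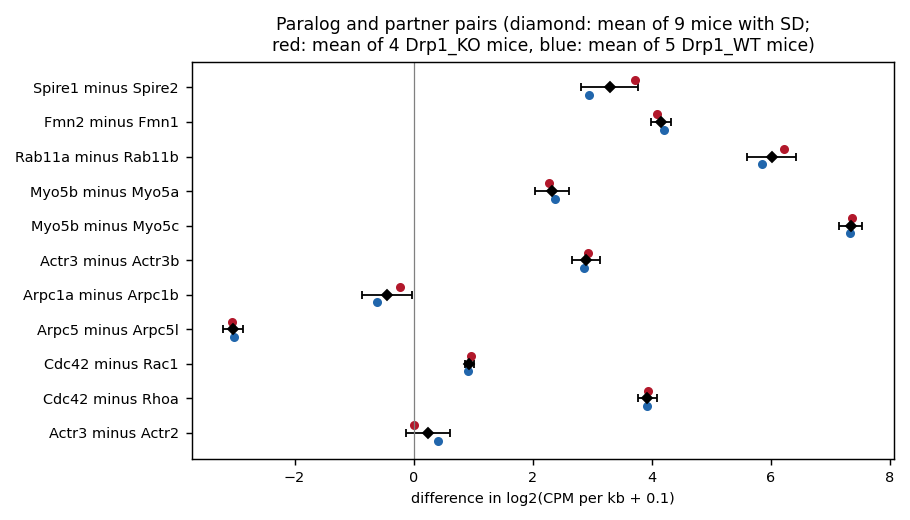
Differences between the genes of 11 pairs in log2(CPM per kb + 0.1); the pair of Wasl and Was is left out because Was had no counts. Black diamonds are means of 9 mice with the SD, red points the means of 4 Drp1_KO mice and blue points those of 5 Drp1_WT mice; Arpc5 lies 3.03 below Arpc5l, and the labels lie farthest apart for the Spires, at 3.71 and 2.95.

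Members varied from oocyte to oocyte by different amounts. Outside tube 10 of mouse b, the spread within a mouse under Drp1_KO was smallest for Cdc42 (coefficient of variation 5.07%) and Rab11a (8.76%). It was 14.2% for Fmn2, 21.3% for Actr2 and 32% for Spire2. Spire2 is counted by few reads: its median was 33 counts per library under Drp1_KO without tube 10, where counting error alone gives 17.4%, and 66 counts under Drp1_WT, where it gives 12.3%. Under Drp1_WT the spread within a mouse was 7.04% for Cdc42, 21.3% for Fmn2, 27.2% for Actr2 and 35% for Spire2.

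Spire2 in single oocytes is given in full. Mouse a held 4.87, 6.82, 9.04 and 3.46 CPM in its 4 oocytes, mouse b 7.74, 8.34, 3.97, 6.57 and, in tube 10, 0 CPM. Mouse c held 5.35, 9.64, 9.45, 7.56 and 4.89 CPM and mouse d 5.15, 3.12, 5.40 and 5.89 CPM. Under Drp1_KO no oocyte reached 10 CPM.

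Among mice labelled Drp1_WT, mouse 1 held 13.8, 11.9 and 13.9 CPM of Spire2, and mouse 2 held 13.4, 7.06 and 4.04 CPM. Mouse 3 held 7.42, 8.61, 11.7, 17 and 19.1 CPM, mouse 4 held 14.2, 15.4 and 9.57 CPM, and mouse 5 held 5.40, 13.7, 9.74 and 9.38 CPM. The oocytes of the labels overlapped, with 11 of 18 Drp1_WT oocytes above the highest Drp1_KO oocyte and 4 of 18 Drp1_KO oocytes below the lowest Drp1_WT oocyte. The highest values were in tubes 11 and 12 of mouse 3, and the 5 libraries in tubes 11 to 15 had a median of 15.4 CPM against 9.74 CPM in the other 13 Drp1_WT libraries.

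**Figure D3:**
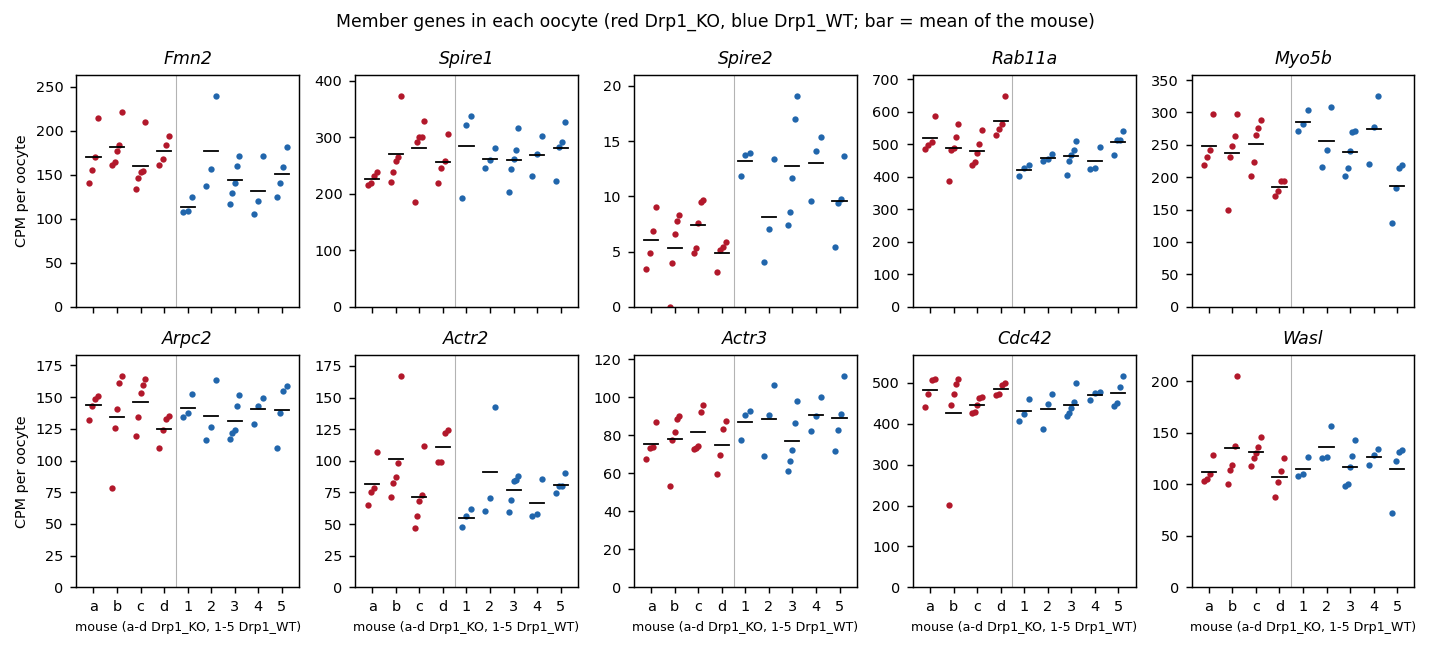
CPM of each member in every oocyte, by mouse, with a bar at the mean of the mouse; red points are Drp1_KO (mice a to d) and blue points Drp1_WT (mice 1 to 5). Spire2 lies at up to 9.64 CPM in the red points and up to 19.1 CPM in the blue points, and a red point of mouse b stands low for Cdc42 (202 CPM) and high for Actr2 (167 CPM).

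In tube 10 of mouse b the members split. Spire1 (374 CPM), Actr2 (167 CPM) and Wasl (205 CPM) lay above all other 35 libraries. Rab11a (386 CPM), Cdc42 (202 CPM), Arpc2 (78.7 CPM) and Actr3 (53.5 CPM) lay below all of them. Spire2 had 0 counts there, where 3 counts would be 0.613 CPM, while Fmn2 (222 CPM) and Myo5b (150 CPM) lay within the range of the others.

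From oocyte to oocyte, the levels of Fmn2, Actr2 and Rab11a were high and low together, and those of Spire2 and Myo5b ran the other way. These are Spearman correlations of log2(CPM + 1), centred on the mean of each label, over the 35 oocytes without tube 10 of mouse b. The points share mice and libraries, and the values are descriptions. No share over all genes was computed for these pairs, so they are not read as particular to the members. With tube 10 included, rho of 7323 genes with Spire2 ran from -0.82 to 0.81. Rab11a and Actr2 had rho = 0.80, Fmn2 and Actr2 0.77, and Fmn2 and Rab11a 0.72. Fmn2 and Spire2 had rho = -0.65, Spire2 and Rab11a -0.62, Myo5b and Actr2 -0.69, and Myo5b and Rab11a, the motor and its vesicle GTPase, -0.74.

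The pattern was present under both labels. Fmn2 and Spire2 had rho = -0.75 in 17 Drp1_KO oocytes and -0.56 in 18 Drp1_WT oocytes, and Fmn2 and Actr2 had 0.78 and 0.80. With values centred on each mouse, Fmn2 and Spire2 had -0.63 and Fmn2 and Actr2 0.76. Other pairs named above were closer to 0 on that scale: Rab11a had 0.54 with Actr2, 0.52 with Fmn2 and -0.49 with Myo5b, and Myo5b had -0.29 with Actr2. With tube 10 of mouse b included and values centred on the label, Fmn2 and Rab11a had 0.57 and Fmn2 and Spire2 -0.64. The oocyte in tube 6 of mouse 2, labelled Drp1_WT, was picked after its values were seen: it had the highest Fmn2 of all libraries (239.6 CPM), 143 CPM of Actr2 and 4.04 CPM of Spire2, the lowest Spire2 of its label. Its mitochondrial share was 0.556%.

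The subunits of the Arp2/3 complex did not vary as one. Arpc2 and Actr3 had rho = 0.70, Actr3 and Wasl 0.63 and Arpc2 and Wasl 0.49, while Actr2 and Actr3 had -0.09 and Actr2 and Arpc2 -0.33. Spire1 had rho = 0.23 with Spire2 and 0.02 with Fmn2.

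The share of counts from the mitochondrial genome moved with the same genes. Across 17 Drp1_KO and 18 Drp1_WT oocytes, its Spearman correlation was 0.84 and 0.81 with Fmn2, 0.89 and 0.66 with Rab11a, and 0.76 and 0.83 with Actr2. It was -0.75 and -0.56 with Spire2 and -0.62 and -0.72 with Myo5b. The number of detected genes had rho = -0.46 and -0.57 with Fmn2, and 0.53 and 0.48 with Spire2. Total counts had rho = 0.60 with Spire2 under Drp1_KO and -0.14 under Drp1_WT. The part of these library measures in the pattern was not tested.

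**Figure D4:**
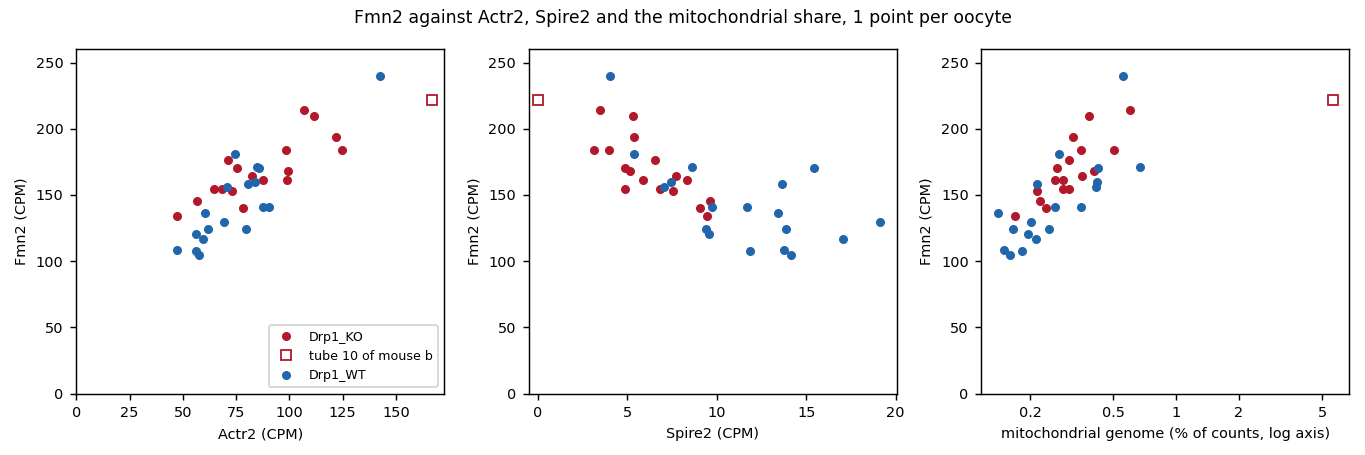
Fmn2 in CPM against Actr2 in CPM, Spire2 in CPM and the share of counts from the mitochondrial genome in percent on a log axis, with 1 point per oocyte; red is Drp1_KO, blue is Drp1_WT, and the open square is tube 10 of mouse b. Fmn2 goes up with Actr2 (rho = 0.77) and down with Spire2 (rho = -0.65) over the 35 other oocytes, with rho of the same sign under each label.

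The genes whose pattern was most like that of Spire2 over the 36 oocytes, by Spearman correlation centred on the label among 7323 genes, were Tfip11, a splicing factor (rho = 0.81), Kcnk18, a potassium leak channel (0.80), Nr1h2, a nuclear receptor for oxysterols (0.79), Crkl, a signalling adaptor (0.79), and Scamp3, a protein of secretory membranes (0.79). Without tube 10 of mouse b these were 0.79, 0.74, 0.78, 0.78 and 0.72. The median over all genes compared was 0.20. Fmn2 was near the other end, with 1.54% of genes below its -0.64 (3.25% without tube 10), and Actr2 had 2.70% below it (7.74% without tube 10).

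Between the labels, Spire2 was the member with the widest gap, the value that set this list apart. Per mouse, with counts of its oocytes summed and scaled by TMM factors, Spire2 stood at 6.55, 5.95, 7.50 and 5.46 CPM in mice a to d and at 12.7, 8.09, 12.5, 12.3 and 9.66 CPM in mice 1 to 5. The mice did not overlap. The mean was 6.36 ± 0.877 CPM (SD, n = 4) under Drp1_KO and 11 ± 2.06 CPM (SD, n = 5) under Drp1_WT, a log2 difference of -0.79 (SE 0.18), or 1.73-fold less. It was the 1 of 10 members whose mice did not overlap, against 2.56% of all genes tested (1.29% with Drp1_KO lower and 1.27% with it higher). Nothing is read from that, since the same values chose the list.

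The size of the Spire2 gap moved with a few libraries. It was -0.75 without tube 10 of mouse b, -0.66 without the Drp1_WT tubes 11 to 15, and -0.61 without these and the Drp1_WT tube 29. Tubes 27 to 30 hold mouse d and mouse 5 alone, at 5.46 and 9.66 CPM, and within tubes 1 to 15 the log2 difference was -0.77 (3 against 4 mice). CPM is a share of a library, so less Spire2 RNA and more RNA of other genes cannot be told apart.

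Fmn2, the main nucleator, leaned the other way. Mice a to d held 166, 187, 149 and 198 CPM and mice 1 to 5 held 110, 164, 139, 126 and 157 CPM, so the labels overlapped. The means were 175 ± 22.1 CPM (SD, n = 4) and 139 ± 22.1 CPM (SD, n = 5), a log2 difference of 0.33 (SE 0.13), which was 0.22 without the Drp1_WT tubes 11 to 15, and 0.17 without these, the Drp1_WT tube 29 and tube 10 of mouse b. Spire1, the abundant partner of Fmn2, averaged 267 ± 26.1 CPM (SD) over mice a to d and 266 ± 19.2 CPM over mice 1 to 5, a log2 difference of 0.00 (SE 0.10), which was -0.05 without tube 10 of mouse b. It ranged from 229 to 288 CPM under Drp1_KO and from 251 to 292 CPM under Drp1_WT.

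Of the vesicle genes, Rab11a stood at 516, 512, 458 and 640.0 CPM in mice a to d and at 408, 439, 446, 423 and 524 CPM in mice 1 to 5. Only mouse 5 of Drp1_WT reached the range of Drp1_KO. The log2 difference was 0.25 (SE 0.12), 0.14 without mouse d, whose value is the highest, and 0.17 without the Drp1_WT tubes 11 to 15. Myo5b averaged 240.3 ± 22.5 CPM over mice a to d and 240.7 ± 33.3 CPM over mice 1 to 5 (SD), a log2 difference of -0.00 (SE 0.12). Mouse d (207 CPM) and mouse 5 (190 CPM), both from tubes 27 to 30, held the least Myo5b of their labels and the most Rab11a.

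Actr2 was the most variable between mice of the 3 Arp2/3 members. It stood at 78.8, 102, 64.1 and 125 CPM in mice a to d and at 54, 82.5, 74.1, 63 and 83.5 CPM in mice 1 to 5, with a log2 difference of 0.37 (SE 0.19). The labels overlapped, and the difference was 0.19 without mouse d and 0.52 without mouse c. It was 0.29 without tube 10 of mouse b, 0.25 without the Drp1_WT tubes 11 to 15, and 0.19 without these and the Drp1_WT tube 29. Actr3 averaged 80.4 ± 4.19 CPM (SD) in Drp1_KO mice and 83.9 ± 5.88 CPM in Drp1_WT mice, log2 -0.06 (SE 0.10). Arpc2 lay between 141 and 146 CPM in mice a to d and between 128 and 143 CPM in mice 1 to 5, log2 0.09 (SE 0.09), which was -0.00 when CPM of oocytes by their library totals were averaged.

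The activators had small differences. Cdc42 averaged 479 ± 48.3 CPM (SD) in Drp1_KO mice and 441 ± 28.4 CPM in Drp1_WT mice, log2 0.12 (SE 0.10), which was 0.05 without mouse d and 0.03 with no scaling beyond the library total. Wasl stood at 124 ± 11.3 against 118 ± 6.72 CPM, log2 0.07 (SE 0.10), and -0.02 under that scaling. Without tube 10 of mouse b, which held 205 CPM of Wasl, its log2 difference was -0.00, and it was 0.01 without mouse b. Over the 10 members the median log2 difference was 0.08, against -0.00 over all 12812 genes. Of the members, 7 were positive and 3 negative, while 6332 of all 12812 genes were positive. Nothing is read from this tally. The sign turned in 12 of 20 alternatives for Spire1 and for Myo5b, in 3 for Wasl and in 1 for Arpc2. The mitochondrial share, which moved with Fmn2, Rab11a and Actr2 within each label, had a median of 0.306% in the 17 Drp1_KO oocytes without tube 10 and 0.231% in Drp1_WT. Its part in the differences between labels was not tested.

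**Figure D5:**
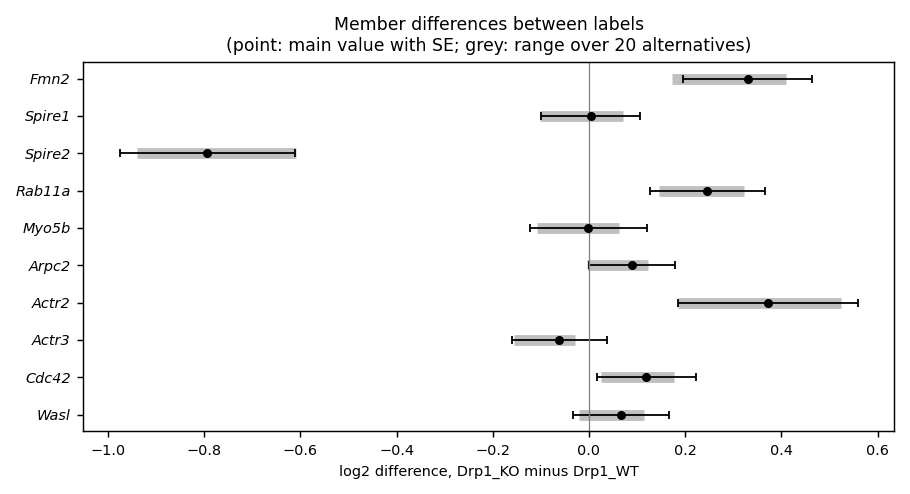
Log2 difference of each member, Drp1_KO minus Drp1_WT, from counts summed per mouse, with the SE as error bar; the grey band spans 20 alternative analyses. Spire2 lies between -0.94 and -0.61 over these, Fmn2 between 0.17 and 0.41, and the bands of Spire1, Myo5b, Wasl and Arpc2 cross 0.

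Other genes of actin assembly were tested in the same fit over all genes. Of 165 such genes in 8 lists by role, 141 could be tested, and edgeR's quasi-likelihood test called 0 of them at an adjusted p of 0.05, against 0.0156% of all genes. At an unadjusted p under 0.05 there were 6 higher and 7 lower, 9.22% of the 141 against 9.69% of all genes (4.89% higher and 4.81% lower). The median log2 difference of the 141 was -0.03. DESeq2 called 1 of them, against 0.336% of all genes, and limma-voom on single oocytes called 0.

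That gene was Trip10, an F-BAR adaptor that binds Cdc42 and N-WASP. It stood at 15.4 ± 1.22 CPM (SD, n = 4) under Drp1_KO and 24.3 ± 0.800 CPM (SD, n = 5) under Drp1_WT (log2 -0.66, SE 0.12, edgeR adjusted p = 0.2, DESeq2 adjusted p = 6.99e-06). Among the 25 GTPase genes tested, 1 was higher and 2 lower at an unadjusted p under 0.05 (12% against 9.69% of all genes). The higher one was Rnd3, at 4.53 ± 0.547 against 3.01 ± 0.811 CPM. Trip10 and Rnd3 had 0 counts in tube 10 of mouse b.

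Among 9 other formins tested, 2 were higher and 1 lower at an unadjusted p under 0.05, against 9.69% of all genes. Their median log2 difference was 0.13, and nothing is read from so short a list. Fmn1 stood at 18.4 ± 2.23 against 13.2 ± 2.75 CPM (log2 0.47, SE 0.17) and Fmnl3 at 87.0 ± 12.6 against 114 ± 19.6 CPM (log2 -0.39, SE 0.14), each with an edgeR adjusted p = 0.499. None of the 7 other Arp2/3 genes had an unadjusted p under 0.05, against 9.69% of all genes. Of the 7, Arpc1b stood at 77.7 ± 25.0 against 102 ± 19.2 CPM and Arpc5l at 520 ± 60.1 against 472 ± 41.6 CPM.

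Among 19 nucleation promoting factors and their partners tested, 1 was higher at an unadjusted p under 0.05 (5.26% against 9.69% of all genes). This was Nckap1, of the WAVE complex, at 64.7 ± 13.6 against 52.8 ± 0.820 CPM. Its log2 difference of 0.29 was 0.15 without tube 10 of mouse b, which held 183 CPM against at most 77.7 CPM elsewhere. Cyfip2, of the same complex, stood at 33.0 ± 2.49 against 38.2 ± 4.14 CPM. A list of inhibitors of the Arp2/3 complex, coronins and Carmil1 had 8 genes tested. A negative difference was seen in 7 of these 8, against 6480 of all 12812 genes. Their median log2 difference was -0.18, and 1 had an unadjusted p under 0.05, against 9.69% of all genes. The list is too short for these counts to be read as a result. Pick1 stood at 2.81 ± 0.734 against 4.79 ± 1.34 CPM and Gmfb at 48.4 ± 12 against 40.2 ± 2.97 CPM, with 124 CPM of Gmfb in tube 10 of mouse b.

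None of 25 genes of vesicle transport and myosins had an unadjusted p under 0.05, against 9.69% of all genes. Myo10, a filopodial myosin, stood at 236 ± 13.9 against 204 ± 20.4 CPM and Myo1c at 14.4 ± 2.42 against 20 ± 7.78 CPM. Of 26 genes of actin monomers and filament turnover, 2 were higher and 1 lower at that level (11.5% against 9.69% of all genes). Cfl2, a cofilin that severs filaments, stood at 345 ± 37.8 against 289 ± 16.6 CPM. Tmsb4x, which holds actin monomers, stood at 31.4 ± 61.1 against 1.22 ± 0.635 CPM. Tube 10 of mouse b held 721 CPM of it and any other oocyte at most 10.4 CPM, and its log2 difference of 4.70 was -0.62 without that library.

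Of 22 genes of cortex and polarity tested, 2 were lower at an unadjusted p under 0.05 (9.09% against 9.69% of all genes). Prkcz, an atypical protein kinase C, stood at 0.775 ± 0.301 against 1.55 ± 0.258 CPM and Actn4, an actin crosslinker, at 47.8 ± 14.6 against 74.5 ± 29.5 CPM. The adjusted p of the 16 genes picked from these lists lay between 0.2 and 0.648 by edgeR.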

How the data were processed

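Single oocytes were lysed, their cDNA came from a SMARTer Ultra Low Input reaction, and Nextera XT libraries were read single-end on a HiSeq, per the labels' protocols. The authors deposited raw counts of 21968 Ensembl genes in 36 oocytes. Picard, STAR, Subread 1.5.2, featureCounts and the GRCm38 build stand in the submitters' processing notes without roles. No source used here gives the annotation, strand setting or treatment of multiple matches and PCR copies, and no molecular identifiers are named, so counting floors cover counting error only.

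Genes were named, located and given lengths from GENCODE M21 (21876 IDs matched). Counts were summed per mouse, the replicate, since oocytes of a mouse are not independent. Labels were compared with edgeR 4.0.16 (R 4.3.3): TMM factors, filterByExpr with the label, a robust quasi-likelihood fit, Benjamini-Hochberg adjusted p of 0.05 over 12812 genes. The SE of a log2 difference is its size divided by the square root of the quasi-likelihood F, not a fitted standard error. Levels per mouse are CPM with TMM factors and levels per oocyte are CPM by the library total. Between genes, CPM per kb of all annotated exons was compared on log2(CPM per kb + 0.1) by exact sign-flip tests over 9 mice (scipy 1.17.1).

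The members, lists and tests were chosen with earlier results of these data known. Named genes are the members, both genes of each pair, genes past the threshold or up to 2 with the smallest p in each role list, Dnm1l, and the 5 genes most like Spire2 of at least 10 CPM. The edgeR and DESeq2 fits were run on simulated counts of independent mice with planted changes, without an outlying oocyte or tube set. Only the return of the planted median log2 differences was required. Alternatives were DESeq2 1.42.0, limma-voom (limma 3.58.1) over oocytes with a random effect of mouse, other scaling, no filter, other pseudocounts and lengths, named tubes left out, a term for the tube set, and leaving out each mouse in turn.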

Additional observations from a re-analysis of the deposited data

How the results depend on the processing

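Over all genes, edgeR called 2 between the labels, against 43 by DESeq2, 9 by limma-voom on single oocytes and 4 within tubes 1 to 15, and 1 to 3 with a mouse left out (1 without mice 2, 3, a or b). Of the 141 other actin genes, 0 were called by edgeR or limma-voom under the settings run and 1 by DESeq2 (Trip10). The members' differences moved by less than the spread between mice under each alternative, except Arpc2, at 0.00 with no scaling and -0.00 with averaged oocytes, and Actr3, at -0.16 with averaged oocytes. The sign of Spire1 and Myo5b turned in 12 of 20 alternatives each, of Wasl in 3 and of Arpc2 in 1. Tmsb4x turned to -0.62 without tube 10 of mouse b, -0.54 by limma-voom, -0.54 without that tube and the Drp1_WT tubes 11 to 15 and 29, and ranged from -0.44 without mouse b to 5.11 without mouse d. Removing the 3 sets of tubes together was chosen after seeing the data.

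The count of 11 of 12 paralog differences, that of Wasl and Was included, stayed within 1.5 times under each alternative run, and 5 of 9 neighbouring differences became 8 with the longest transcript as length, where the cause was not tested. Exon lengths per gene limit every comparison between genes, and low counts limit Spire2. No paired analysis was possible because mice carry letters under one label and numbers under the other.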
